A study of Mus musculus with 4 samples.

Results

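The proteasome genes of female mouse liver were followed after knockdown of Cux2, a homeobox gene for a transcription factor that, within mouse liver, is found mainly in females. The gene set was chosen by name: every gene whose symbol begins with Psma, Psmb, Psmc, Psmd, Psme, Psmf or Psmg and a digit. The gene table held 51 such protein-coding genes, and 48 of them matched at least 1 of the 41174 probes, through 68 probes in all. Psma8, Psme2b and Psmg4 had no matched probe and were not analysed here. Psmb11, the core subunit of the thymus, was well above background in too few readings to be tested. The other 47 genes were tested among 25091 genes. They comprise 31 constitutive subunits, 5 immunoproteasome genes (Psmb8, Psmb9, Psmb10, Psme1 and Psme2), 9 assembly factors, other activators and the inhibitor, and 2 genes that carry such a name without being subunits (Psmc3ip and Psme3ip1).

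The mice were 8-week-old females of CD-1, an outbred stock, and no engineered allele is named. They received Cux2 siRNA or, as control, a non-specific siRNA, and liver RNA was pooled. Each of 4 Agilent arrays carried 1 treated and 1 control pool in different dyes, with 2 arrays for day 5 and 2 for day 8 after treatment. Of the treated pools, that of day 5 replicate 1 was made from 3 mice and each of the others from 2. By the series text there were 13 control mice in 2 pools of 6 or 7, whereas the sample texts give 6 control mice for each array. With 2 control pools on 4 arrays, at least some arrays share their control, so that day 5 and day 8 may not be independent. The labels used here do not match control pools to arrays, nor give the day on which control mice were killed. Treated RNA was in the red dye in replicate 1 and in the green dye in replicate 2 of both days, so replicate number and dye orientation cannot be told apart.

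All values below are log2 ratios of treated over control signal, so that a negative value is a lower level after Cux2 siRNA, and a gene passed where its p, adjusted by Benjamini-Hochberg in 1 limma fit over all genes, was under 0.05. Cux2 itself read -1.91, -1.70, -1.07 and -1.20 on the arrays of day 5 replicate 1, day 5 replicate 2, day 8 replicate 1 and day 8 replicate 2, an order kept in every sentence below that gives 4 values. Its mean over both days was -1.47 ± 0.06 (SE, n = 4 arrays, limma adjusted p = 0.000913), or 36.1% of control. All 10 measured markers of hepatocytes, the cells that make up most of the liver, were well above background in all 8 channel readings. Median spot signals were 381.5 to 471.5 over backgrounds of 306 to 342, and between 71.1% and 74.5% of probes were well above background in a channel. Every member named with a value was read on all 4 arrays.

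The proteasome is the protease that degrades ubiquitin-tagged proteins in the cytosol and nucleus. Its barrel-shaped core consists of outer rings of alpha subunits and inner rings of beta subunits, of which 3 (Psmb5, Psmb6 and Psmb7) carry the catalytic sites. A regulatory particle, with a ring of ATPases and a lid, recognises, unfolds and feeds in the substrate. Cells exposed to interferon gamma, and immune cells constitutively, build the immunoproteasome, in which Psmb8, Psmb9 and Psmb10 take the places of Psmb5, Psmb6 and Psmb7 in that order. Psme1 and Psme2 form a ring-shaped activator that caps the core without ATP. The exchange changes which peptides are cut for display on MHC class I molecules.

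Promoter sequences are shown for 3 immunoproteasome genes and for 2 of the constitutive catalytic subunits that such genes replace. They come from RefSeq (GRCm38.p6), and 5 of 5 immunoproteasome genes and 25 of 31 constitutive subunits had an entry of 300 bases, from 250 before to 50 after the start. Each sequence is written in the direction of its gene, with capitals marking a motif. The capitals are a gamma-activated site (TTCNNNGAA) in Psmb8, at chr17:34197945-34198194 on the plus strand, which is the 250 bases before the start. In the Psmb9 stretch, chr17:34187331-34187555 on the minus strand, they are a CCAAT box read from the other strand. In Psmb5, chr14:54617996-54618245 on the minus strand, they are an antioxidant response element core (TGACNNNGC, the kind of site used by the Nfe2l1 and Nfe2l2 factors).
Psmb8: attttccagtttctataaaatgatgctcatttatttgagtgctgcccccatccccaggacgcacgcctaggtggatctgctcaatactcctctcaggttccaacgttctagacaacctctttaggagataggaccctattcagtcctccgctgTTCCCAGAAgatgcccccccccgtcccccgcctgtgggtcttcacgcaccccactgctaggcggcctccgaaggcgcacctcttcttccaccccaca
Psmb9: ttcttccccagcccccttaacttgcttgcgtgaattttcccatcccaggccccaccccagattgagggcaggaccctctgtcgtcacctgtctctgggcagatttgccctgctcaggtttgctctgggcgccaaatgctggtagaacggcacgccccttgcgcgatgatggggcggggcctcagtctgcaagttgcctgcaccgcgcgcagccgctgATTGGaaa
Psmb5: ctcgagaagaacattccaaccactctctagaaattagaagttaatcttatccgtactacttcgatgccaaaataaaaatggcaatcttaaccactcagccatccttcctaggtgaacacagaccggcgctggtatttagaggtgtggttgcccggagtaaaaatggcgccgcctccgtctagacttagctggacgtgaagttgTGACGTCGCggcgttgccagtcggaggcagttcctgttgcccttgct
The same core lies in the last bases before the start used for Psmb6, at chr11:70525327-70525356 on the plus strand, and an interferon-stimulated response element (GAAA, any 2 letters and GAAA again, the site of IRF factors) lies in the first bases of Psme1, at chr14:55578493-55578522 on the plus strand, read from the other strand.
Psmb6: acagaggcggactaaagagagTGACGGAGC
Psme1: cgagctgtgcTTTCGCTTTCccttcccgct

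The Psmb9 stretch is the whole interval of 225 bases between the start of Psmb9 and that of Tap1, which is transcribed the other way, so the windows of the 2 genes share 275 of their 300 bases. Of 32851 promoter windows searched on both strands, 3.44% held the interferon-stimulated element, 8.3% the gamma-activated site, 12.4% the antioxidant core and 37.4% a CCAAT box (CCAAT), each motif being searched without regard to the others. Among the immunoproteasome genes the interferon-stimulated element was found in 1 of 5 (Psme1) and the gamma-activated site in 1 of 5 (Psmb8). Among the constitutive subunits they were found in 2 of 25 (Psmb3 and Psmd4) and in 1 of 25 (Psmd2). The antioxidant core was found in 0 of 5 immunoproteasome genes and in 4 of 25 constitutive subunits (Psmb5, Psmb6, Psmc6 and Psmd12). A CCAAT box was found in 1 of 5 (Psmb9) and in 10 of 25. These are matches of letters in a short window and describe nothing about binding.

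All 5 immunoproteasome genes fell on day 5 and on day 8. Over both days their median log2 ratio was -1.30, against -0.14 for the 31 constitutive subunits and 0.00 for all genes tested. Psmb9 and Psmb8 fell furthest, to 20.8% and 28.7% of control. No constitutive subunit fell by 1.5-fold. Over both days 17 of the 47 genes passed (36.2%), 2 higher and 15 lower, against 31.1% of all genes, so the count of changed genes alone sits near the background. The 5 immunoproteasome genes were also the ones that passed with a fall of at least 1.5-fold, which 5.4% of all genes did.

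**Figure D1:**
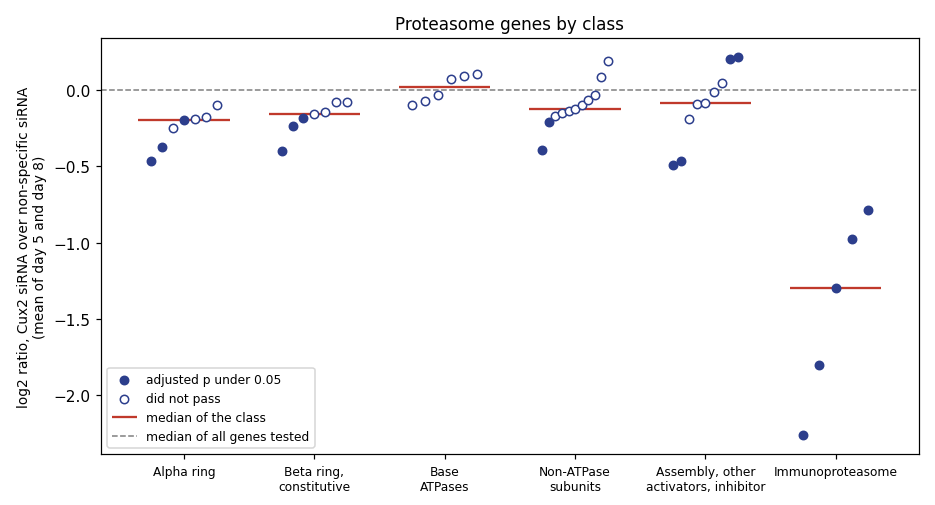
Each point is 1 gene, placed by class, with its log2 ratio of Cux2 siRNA over non-specific siRNA as the mean of day 5 and day 8 on the vertical axis. Filled points passed at an adjusted p under 0.05, bars are class medians and the dashed line is the median of all genes tested. The immunoproteasome class (median -1.30) lies below every other class, and the ATPases (median 0.02) lie around the dashed line.

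Psmb9, which replaces the caspase-like Psmb6, read -1.83, -2.35, -1.99 and -2.88. Its processed scanner signal was 43445, 68517, 40366 and 76377 in the control pools and 12652, 13153, 10460 and 10216 in the treated pools. The control signals were higher on the replicate 2 arrays of both days, whereas the treated signals lay close together, and treated and control signals did not overlap. The mean ratio was -2.26 ± 0.17 (SE, n = 4 arrays, limma adjusted p = 0.00242), rank 96 from the lowest of 25091 genes.

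Psmb8, which replaces the chymotrypsin-like Psmb5, read -1.74, -1.64, -1.87 and -1.96, with signals of 32512, 38330, 28415 and 37599 in control and 10217, 12504, 8235 and 9463 in treated pools. The groups did not overlap, and of the 5 genes this one had the smallest SE relative to its change. The mean was -1.80 ± 0.05 (SE, n = 4 arrays, limma adjusted p = 0.000405), and a second probe of the gene gave -1.73. Psmb10, the replacement of the trypsin-like Psmb7, read -1.15, -1.39, -1.20 and -1.45 and averaged -1.30 ± 0.07 (SE, limma adjusted p = 0.00139), or 40.7% of control. Its ratio was lower on the replicate 2 array of each day, as it was for Psmb9.

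The activator genes changed less. Psme2 read -0.84, -1.08, -0.91 and -1.07, with a mean of -0.97 ± 0.06 (SE, limma adjusted p = 0.00186), or 50.9% of control. Psme1 read -0.71, -0.80, -0.88 and -0.75, with a mean of -0.79 ± 0.05 (SE, limma adjusted p = 0.00186), or 58.0% of control. Psme2 was thus the lower of these partners in the activator ring on every array. Their values lay closer together on the replicate 1 arrays than on the replicate 2 arrays. On the probe used for each gene the treated signals were all lower than the control signals. A dimmer probe of Psme2 had treated and control signals that overlapped across arrays.

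**Figure D2:**
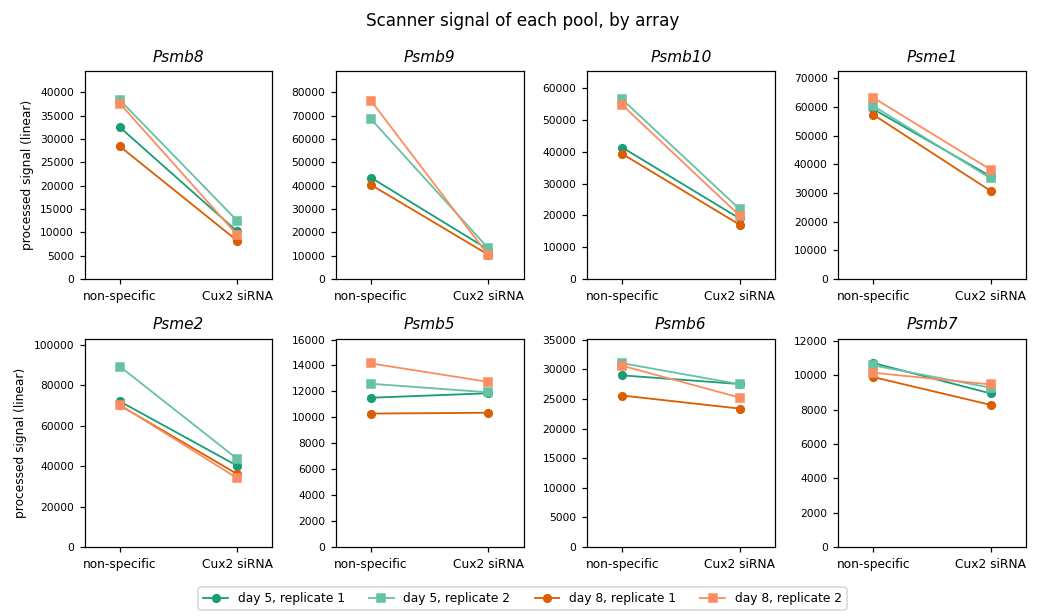
Processed scanner signal (linear, background-subtracted by the scanner software, axis from 0) of the control and the treated pool on each array, joined by a line for each array. The lines of Psmb8, Psmb9, Psmb10, Psme1 and Psme2 fall on all 4 arrays, and those of Psmb5, Psmb6 and Psmb7 slope much less; signals of different genes are not comparable.

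On day 5 alone the limma adjusted p was 0.0122 for Psmb9, 0.00242 for Psmb8, 0.00667 for Psmb10, 0.0085 for Psme2 and 0.00866 for Psme1. On day 8 alone it was 0.0107, 0.00192, 0.00718, 0.0097 and 0.00938 in the same order. The ratios of Psmb9 were -2.09 on day 5 and -2.44 on day 8, and those of Psmb8 -1.69 and -1.91. Between the days 0 of 47 members and 0.0% of all genes differed at the adjusted threshold in limma, and at an unadjusted p under 0.05 the numbers were 0 members and 620 genes. The interval for the day 8 minus day 5 difference ran from -1.25 to 0.56 for Psmb9 and from -0.49 to 0.04 for Psmb8 (95% confidence), both of which span 0.

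These calls had limits. With arrays centred on their median in place of loess the values were almost the same (-2.28 for Psmb9 and -0.79 for Psme1), but calls were lost across all genes. Of 25091 genes 87 rose and 182 fell over both days with that centring, against 3708 and 4089 with loess. On day 5 it gave 1 and 4, and on day 8 0 and 3. Of the 5 immunoproteasome genes only Psmb8 passed over both days (limma adjusted p = 0.047, against 0.0808 for Psmb9, 0.135 for Psmb10, 0.239 for Psme2 and 0.257 for Psme1), and on single days none of the 5 did. All 5 passed over both days whichever array was left out, whereas on a single day only Psmb8 still passed without that day's replicate 2 and Psme1 did not pass without its replicate 1 (limma adjusted p = 0.0524 on day 5 and 0.0566 on day 8).

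The 3 catalytic exchanges can be set side by side. Psmb5, the chymotrypsin-like subunit, read -0.03, -0.10, -0.05 and -0.14, with a mean of -0.08 and a 95% interval of -0.21 to 0.05 (limma adjusted p = 0.294). Psmb6, the caspase-like subunit, read -0.14, -0.16, -0.18 and -0.27 and fell by 0.18 ± 0.05 (SE, limma adjusted p = 0.0447). Psmb7, the trypsin-like subunit, read -0.29, -0.24, -0.25 and -0.15 and fell by 0.24 ± 0.05 (SE, limma adjusted p = 0.0246). The calls of Psmb6 and Psmb7 were lost when any array was left out and with the scanner's processed signals.

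Within arrays, Psmb8 minus Psmb5 was -1.72, -1.54, -1.82 and -1.82, a mean of -1.72 ± 0.13 (SD, n = 4 arrays), which is a 3.30-fold shift between the pair. Psmb9 minus Psmb6 was -1.69, -2.20, -1.81 and -2.62, a mean of -2.08 ± 0.42 (SD) or 4.22-fold. Psmb10 minus Psmb7 was -0.85, -1.15, -0.95 and -1.30, a mean of -1.06 ± 0.20 (SD) or 2.09-fold. The immunoproteasome member was the lower one in each pair on each array. The median of the 5 immunoproteasome genes minus that of the 31 constitutive subunits was -0.99, -1.24, -1.04 and -1.35, a mean of -1.15 ± 0.17 (SD, n = 4 arrays). Psme1, the least changed of the 5, was on every array below the lowest constitutive subunit: -0.71 against -0.49 (Psmd13), -0.80 against -0.54 (Psmb4), -0.88 against -0.54 (Psma5) and -0.75 against -0.42 (Psma5).

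**Figure D3:**
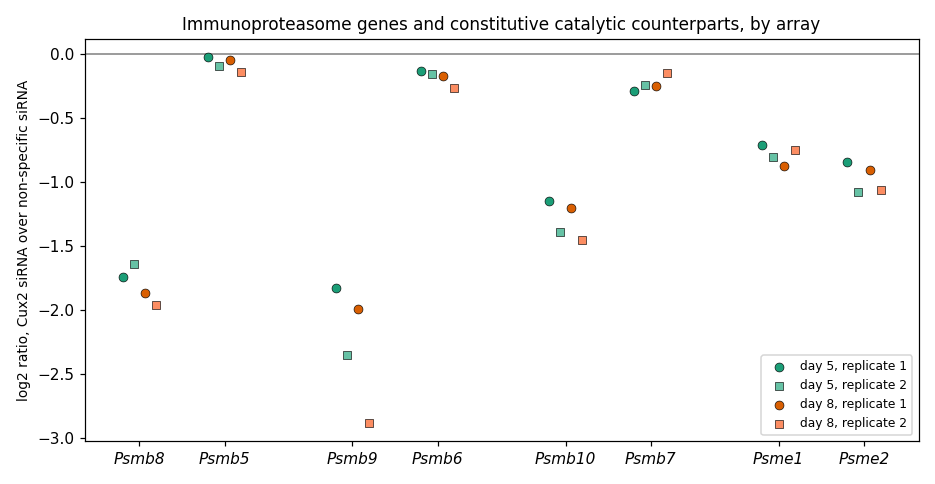
Log2 ratio of Cux2 siRNA over non-specific siRNA (vertical axis) on each array for the immunoproteasome catalytic subunits beside the constitutive subunits they replace, and for Psme1 and Psme2. Circles are replicate 1 and squares replicate 2, with day 5 in green and day 8 in orange. Psmb5, Psmb6 and Psmb7 lie between -0.29 and -0.03, and the immunoproteasome genes between -2.88 and -0.71.

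Among constitutive subunits 8 of 31 fell over both days (25.8%, against 16.3% of all genes) and 0 rose in limma (against 14.8%), with 14 lower and 0 higher at an unadjusted p under 0.05. At that unadjusted threshold 5434 of all 25091 genes were lower and 5352 higher over both days. On day 5 these numbers were 4342 and 3973, and on day 8 4070 and 3777. On day 5 alone 3 constitutive subunits fell and 0 rose in limma, against 9.43% and 7.38% of all genes (9 and 0 at an unadjusted p under 0.05). On day 8 alone 2 fell and 0 rose (again 9 and 0 unadjusted), against 8.05% and 6.27%. Across all members the counts were 10 of 47 on day 5 and 8 of 47 on day 8, all of them lower, beside 16.8% and 14.3% of all genes called in either direction. The lowest constitutive value was -0.47, and the class medians on the 4 arrays were -0.16, -0.15, -0.16 and -0.10. These counts rested on few arrays: over both days fewer members and fewer constitutive subunits passed in every fit with 1 array left out. With median centring 1 of 47 members and 0 of 31 constitutive subunits passed. On day 5, 4 members passed without replicate 1 and 1 without replicate 2, and on day 8 likewise 4 and 1.

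The core particle accounted for 6 of the 8, which is 42.9% of its constitutive subunits, against 16.3% of all genes. All 14 of these subunits had a mean below 0, beside 12323 of all 25091 genes, and the median of the 14 was -0.19. Of the 7 alpha subunits, which form the gate and the docking surface of the core, Psma5, Psma7 and Psma2 fell. Psma5 read -0.36, -0.54, -0.54 and -0.42, a mean of -0.47 ± 0.06 (SE, limma adjusted p = 0.00622), and it passed on both single days. Psma7 averaged -0.37 (limma adjusted p = 0.0177) and Psma2 -0.19 (0.0348), while Psma6 (-0.25), Psma1 (-0.19), Psma4 (-0.17) and Psma3 (-0.10) did not pass. Of the beta subunits without a catalytic site Psmb4 fell by 0.40 (limma adjusted p = 0.0101), and Psmb3 (-0.15), Psmb1 (-0.14) and Psmb2 (-0.07) did not pass.

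Subunits of the regulatory particle had values closer to 0. Of its 17 genes 2 fell (11.8%, below the 16.3% of all genes) and 0 rose in limma, with a median of -0.07. At an unadjusted p under 0.05 in limma 4 were lower and 0 higher, beside 5434 and 5352 of all 25091 genes. The 6 ATPases Psmc1 to Psmc6, the ring that unfolds the substrate, lay between -0.10 and 0.11 with a median of 0.02, and 0 passed in limma (also 0 at an unadjusted p under 0.05). Among the 11 subunits without ATPase activity Psmd13, a lid subunit, fell by 0.39 (limma adjusted p = 0.00648) and Psmd2, the largest scaffold of the base together with Psmd1, fell by 0.21 (0.0396). Psmd1 averaged 0.09, the ubiquitin receptor Psmd4 -0.14 and the lid deubiquitinase Psmd14 -0.12, and none of the 3 passed. Psmd6, a lid subunit, had the highest mean of the constitutive subunits with 0.03, 0.30, 0.06 and 0.36, a mean of 0.19 ± 0.08 (SE, limma adjusted p = 0.141), its values being higher in replicate 2 of both days. Psmd12, a lid subunit, averaged -0.03 on its brightest probe and 0.30 on another, so its direction depended on the probe.

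**Figure D4:**
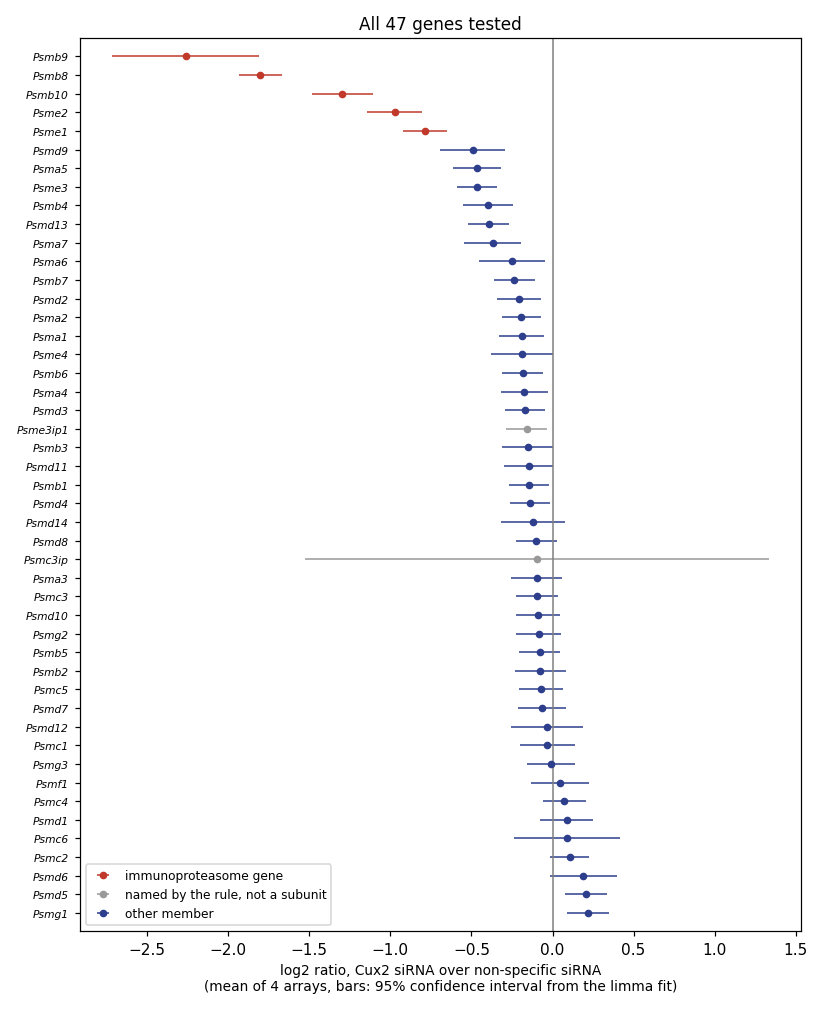
Mean log2 ratio over the 4 arrays (horizontal axis, Cux2 siRNA over non-specific siRNA) with its 95% confidence interval from the limma fit, for the 47 genes tested, ordered from the lowest. Red points are the 5 immunoproteasome genes, with means between -2.26 and -0.79, and grey points the 2 genes that are not subunits. The means of all the others lie between -0.49 and 0.22.

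Assembly factors went both ways. Psmd9, a chaperone of the ATPase ring, read -0.76, -0.47, -0.49 and -0.25, a mean of -0.49 ± 0.08 (SE, limma adjusted p = 0.0116), the lowest value outside the immunoproteasome genes. It passed on day 5 (limma adjusted p = 0.0273) and not on day 8 (0.0926), and a second probe of the gene averaged -0.34. Psmd5, another chaperone of that ring, read 0.16, 0.19, 0.17 and 0.31 and rose by 0.21 ± 0.05 (SE, limma adjusted p = 0.0385). Psmg1, a chaperone of alpha-ring assembly, read 0.16, 0.18, 0.20 and 0.33 and rose by 0.22 ± 0.05 (SE, limma adjusted p = 0.0313). Both rises were lost when any array was left out. Psmd10 (-0.09), Psmg2 (-0.08), Psmg3 (-0.01) and the inhibitor Psmf1 (0.05) did not pass, and the probes of Psmf1 ranged from -0.23 to 0.18.

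Of the other activators, Psme3, the nuclear relative of Psme1 and Psme2, read -0.50, -0.55, -0.39 and -0.42 and fell by 0.46 ± 0.05 (SE, limma adjusted p = 0.00396). Without background subtraction its mean was -0.25 (limma adjusted p = 0.0146). Psme4, a large activator that needs no ATP, averaged -0.19 and did not pass. The non-subunit Psme3ip1 averaged -0.16 and did not pass. Psmc3ip, a recombination factor named for an interaction with Psmc3, read 0.90, -1.33, 1.29 and -1.25, and its red-over-green ratio was above 0 on all 4 arrays. Its treated-over-control sign followed the dye, and its mean of -0.10 ± 0.55 (SE) did not pass.

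Proteasome partners outside the name rule were measured for 21 of 22 listed genes. Of these 6 fell and 0 rose in limma, or 28.6% and 0%, against 16.3% and 14.8% of all genes, with a median of 0.02. At an unadjusted p under 0.05 in limma 8 were lower and 3 higher, beside 5434 and 5352 of all 25091 genes. Nfe2l1, the transcription factor that raises proteasome genes when the protease is inhibited, read -0.44, -0.50, -0.29 and -0.49, a mean of -0.43 ± 0.06 (SE, limma adjusted p = 0.00741). Pomp, the maturation factor that brings the beta rings together, read -0.44, -0.31, -0.60 and -0.41, a mean of -0.44 ± 0.06 (SE, limma adjusted p = 0.00773). The other falls were Txnl1 (-0.62), a thioredoxin-like protein of the regulatory particle, Nploc4 (-0.59), a cofactor of the Vcp unfoldase, Akirin2 (-0.57), which carries proteasomes into the nucleus, and Ubqln4 (-0.45), a shuttle for ubiquitinated proteins. With the mean of all probes Txnl1 was -0.46. All 6 lost their call with median centring, under which 182 of all 25091 genes fell over both days. The 6 ubiquitin and ubiquitin-activating enzyme genes had 0 passing in limma (1 at an unadjusted p under 0.05) and a median of -0.08.

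Genes that act after the proteasome in class I presentation had lower values too. Of the 6 measured, 5 fell, against 16.3% of all genes. Tap1, a chain of the transporter that moves peptides into the endoplasmic reticulum, read -1.99, -2.72, -2.28 and -2.85, a mean of -2.46 ± 0.16 (SE, limma adjusted p = 0.00178). Its partner Tap2 averaged -1.33, the peptide-loading proteins Tapbpl and Tapbp -1.28 and -1.21, and the trimming peptidase Erap1 -0.89. The light chain B2m read -0.04, -0.96, -0.25 and -0.87, with clearly lower values in replicate 2, and its mean of -0.53 did not pass (limma adjusted p = 0.0958). With median centring, under which 182 of all 25091 genes fell over both days, Tap2, Tapbp, Tapbpl and Erap1 did not pass (limma adjusted p from 0.0629 to 0.124).

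Of the 6 regulators of interferon-responsive genes reported here, 3 fell over both days, against 16.3% of all genes, with a median of -0.71 over these 6. Irf1, a transcription factor induced by interferon gamma, read -0.93, -1.88, -0.85 and -1.98, a mean of -1.41 ± 0.24 (SE, limma adjusted p = 0.0151). With the mean of all probes Irf1 was -1.2. Irf8, a factor of myeloid cells, averaged -1.30 and Stat3, the factor of interleukin signalling, -0.98. Irf1, Irf8 and Stat3 were each lower on the replicate 2 arrays. None of the 3 passed with median centring, under which 182 of all 25091 genes fell over both days. Irf8 also lost its call with the scanner's processed signals and without either replicate 2 array, and Irf1 and Irf8 did so without background subtraction (limma adjusted p = 0.0552 and 0.103).

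Immune cells carry the immunoproteasome constitutively, so marker genes are given beside its values. In bulk tissue, fewer cells of a type and less RNA per cell cannot be told apart. Of 13 measured macrophage markers 10 fell, with a median of -0.66, and the sum of their processed signals was 121222 to 145299 in control pools and 69831 to 107124 in treated pools. The macrophage median was -0.39, -0.99, -0.41 and -0.89 on the 4 arrays, lower in replicate 2 of both days. Of 8 neutrophil markers 5 fell (median -0.44), with sums of 16726 to 23042 and 2783 to 5172. Of 14 lymphocyte markers 6 fell and 1 rose (median -0.12), with sums of 7903 to 9801 and 5244 to 5900. Over all genes 16.3% fell and 14.8% rose. Marker calls, here and below, are given with loess only. With median centring 182 of all 25091 genes fell and 87 rose over both days. All 3 sums separated treated from control pools. Of the tested markers 13 of 13, 7 of 8 and 13 of 14 were well above background in all 8 readings; the probe of the neutrophil marker Elane was too dim to be tested, and Cd68, Cd8a, Trbc2 and Ly6g had no matched probe. Their part in the fall of the immunoproteasome genes was not tested.

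Of 10 endothelial markers 4 fell and 2 rose (median -0.08), beside 16.3% and 14.8% of all genes. Of 10 hepatocyte markers 1 fell and 1 rose (median 0.08), which is below those shares. Their medians on the 4 arrays were 0.22, -0.34, 0.35 and -0.40. The sign followed the replicate number, which is also the dye orientation, so 0.08 joins values of opposite sign. Markers of exocrine pancreas, 3 of 11 of which fell, had a median of -2.44, -3.75, 0.64 and -3.61 on the 4 arrays. The immunoproteasome median was -1.15, -1.39, -1.20 and -1.45. The part of pancreas RNA in these values was not tested.

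The 5 genes lie at 3 places in the genome, and their neighbours in chromosomal order, up to 3 on either side, were read the same way. Of all genes 16.3% fell and 14.8% rose over both days. With median centring 182 of all 25091 genes fell and 87 rose. Apart from those of Tap1 and Tap2, calls of the neighbours are given with loess only. On chromosome 17, in the MHC class II region, Psmb9, Tap1, Psmb8 and Tap2 follow one another, and all 4 fell. On the Psmb9 side H2-DMb1 (-1.47) and H2-DMa (-1.48), which load class II molecules, fell as well, whereas H2-DMb2 between them averaged -0.03 and did not pass. On the Tap2 side H2-Ob averaged -0.10 and did not pass, and H2-Ab1, a class II chain, fell by 0.91 (limma adjusted p = 0.023). The values of H2-Ab1 were scattered, at -0.80, -1.46, -0.25 and -1.15.

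On chromosome 14 Psme1 and Psme2 flank Emc9, which averaged -0.01 and did not pass. Beyond them Rnf31 (-0.80), a subunit of the linear ubiquitin ligase, and Dcaf11 (-0.60) fell, Fitm1 (0.75) and Rec8 (0.68) rose, and Pck2 (-0.14) did not pass. The values of Fitm1 were scattered, at 1.17, 0.32, 0.64 and 0.87. Irf9, next to Rnf31, read -1.47, 0.72, 0.48 and -1.13, which is too scattered for a direction. On chromosome 8 Psmb10 stood between Ctrl, a pancreatic protease gene that read -1.70, -2.54, 0.62 and -3.23, and Lcat, a plasma cholesterol enzyme made by the liver, at 0.00. Neither passed, nor did Nrn1l and Pskh1, while Slc12a4 fell by 0.35 (limma adjusted p = 0.0137).

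**Figure D5:**
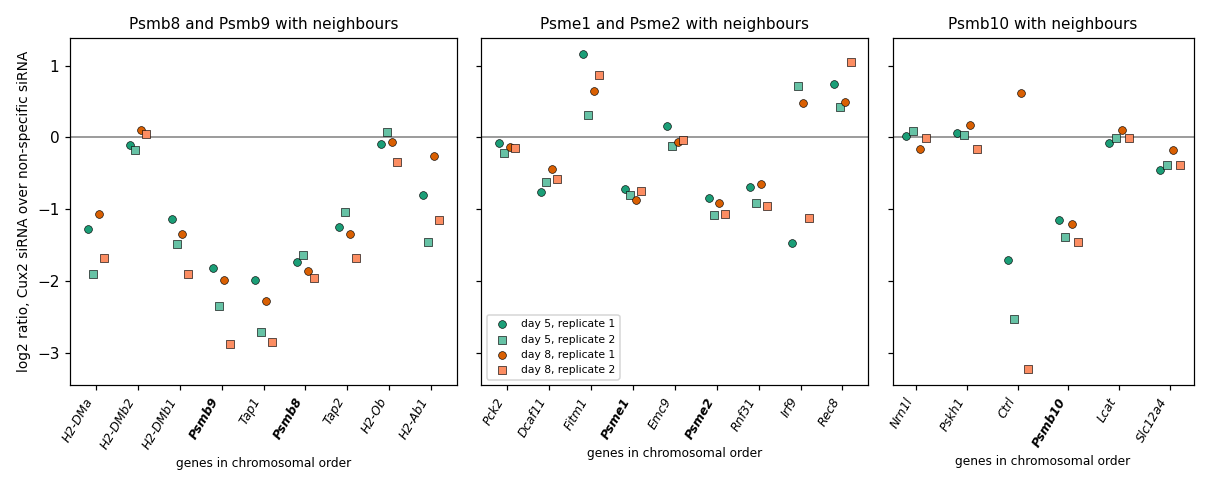
Log2 ratio of Cux2 siRNA over non-specific siRNA (vertical axis) on each of the 4 arrays for the immunoproteasome genes (bold) and their tested neighbours in chromosomal order (horizontal axis, not to distance). The run from Psmb9 to Tap2 lies between -2.88 and -1.03, whereas Emc9 between Psme1 and Psme2 and Lcat beside Psmb10 lie around 0.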

How the data were processed

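Liver RNA pools were compared on 4 two-colour Agilent 44k mouse arrays, all on 1 slide. Per the file headers, the scanner files were made with Agilent Feature Extraction 10.7.1.1. Median spot and local background signals were used, as deposited intensity values. Per the file headers, the processed intensity values had been corrected for background and dye. The authors' value table holds log10 ratios, equal to the scanner's within 1e-05 after turning the sign of arrays with treated RNA in green. The deposited p-value per spot was not used.

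In limma 3.58.1 (R 4.3.3), background was corrected by normexp (offset 50), ratios were loess-normalized within arrays with 1639 control spots at weight 0, outlier spots were left out and spots averaged per probe. The design had named mean signals, and median signals were used in their place. Of 41174 probes 23374 (56.8%) were named through their RefSeq accession (GRCm38.p6 table), and since the array design names another build, the only coordinates given are those of the GRCm38.p6 promoter windows. Probes well above background in at least 2 of 8 readings were kept (31757), with the brightest probe per gene. A single lmFit and eBayes fit over the 4 treated-over-control arrays (2 residual and 2.78 prior degrees of freedom) gave day 5, day 8, their mean and their difference, with Benjamini-Hochberg adjustment over 25091 genes. The fitting step alone was run on simulated ratios with independent noise, which does not test normalization, dye orientation or probe choice. Pools are the replicates, but the fit took the 4 arrays as independent. Its p-values measure the spread between the arrays of a day, dye effects included. Where arrays of both days share a control pool, error common to the days is not counted. The both-days SE and adjusted p may then be too small. The number of arrays also limits the precision.

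Members and gene lists were chosen with earlier results of these data known. Named with full values are the immunoproteasome genes, Psmb5, Psmb6 and Psmb7, and the 3 highest and 3 lowest other members over both days. From lists outside the rule come Nfe2l1, Pomp, Irf1, Tap1 and up to 4 others that passed. B2m, members that passed with smaller changes, and genes with scattered values were named after their values were seen. A gene of the regulator list is not reported here. Alternatives were median centring, no background subtraction, processed signals, the authors' values, other probe filters, the mean of all probes, a replicate block, and each array left out.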

Additional observations from a re-analysis of the deposited data

How the results depend on the processing

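All counts of members called kept their direction and stayed within 1.5 times of the reported value without a filter on dim probes, with probes well above background in every channel, and with the mean of all probes. With median centring the counts were 0 on day 5, 0 on day 8 and 1 over both days, where 10, 8 and 17 are reported. Of all 25091 genes, 1 rose and 4 fell on day 5 with that centring. On day 8 these numbers were 0 and 3, and over both days 87 and 182. With the scanner's processed signals the member counts were 5, 5 and 10, and with the authors' values likewise 5, 5 and 10. With processed signals 954 of all genes rose and 1050 fell on day 5. On day 8 these numbers were 665 and 810, and over both days 3703 and 2946. The cause of these changes was not tested. The constitutive median of -0.14 was -0.082 without background subtraction and -0.0957 with processed signals or the authors' values. Leaving out 1 array gave 1 to 9 members called on day 5, 1 to 6 on day 8 and 10 over both days, each with fewer arrays; a day left with 1 array is assumed to vary like the others. The immunoproteasome median then ranged from -1.36 to -1.23 and the constitutive median from -0.14 to -0.12. None of the counts, the list medians or the 14 members recomputed under every alternative changed sign; Psmd12 and Psmf1, whose probes differ in sign, were not among them.

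With the replicate number as a block, 14 members passed on day 8 (2 rose, 12 fell) and 26 over both days (3 rose, 23 fell), and 14 of 31 constitutive subunits fell over both days. More genes passed across the whole table too. Of all 25091 genes 3525 rose and 3928 fell on day 8, and 5561 and 5694 over both days. Psmd6 also passed (limma adjusted p = 0.0197). Deviations of arrays with the same number correlated at 0.50 over all genes, but with 2 pairs the numbers do not establish a pairing, and the number is also the dye orientation.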
